A study of Mus musculus with 12 samples.

Results

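The genes described here are 9 that mark the cerebellum: Gabra6, Fat2, Cdh15 and Neurod1, used as genes of granule neurons, Pcp2 and Car8, used as genes of Purkinje cells, and En2, Cnpy1 and Crtam, which follow the cerebellum without belonging to a single cell type. They were chosen by name, after their values in these libraries were known, as the rows of the count table whose Ensembl identifiers carry these symbols, and all 9 were found among 43629 gene identifiers. The differences between libraries that led to their choice are therefore given below as a description, with no test.

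The study profiled poly(A) RNA of mouse brain in 12 libraries at 3 months of age. Newborn mice had received an injection into the cerebral ventricles of either recombinant adeno-associated virus (rAAV) carrying a C1qTNF3 collagen domain construct or phosphate-buffered saline (PBS), and the labels give 3 libraries each for PBS females, PBS males, collagen domain females and collagen domain males. RNA came from frozen, powdered forebrain of a hemibrain. No group received a vector without the construct, so the vector and the construct cannot be told apart, and the labels used here name no strain, promoter or serotype. The labels do not say that each library came from its own animal, so the spread behind every p-value is that of these libraries and may be technical.

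The cerebellar cortex is built around Purkinje cells, large inhibitory neurons whose axons are its output, and granule neurons, small excitatory neurons that are among the most numerous of the brain and whose parallel fibres contact the Purkinje cell dendrites. Both arise from the anterior hindbrain, behind the midbrain-hindbrain boundary and in front of the territory in which Hox genes are active. The adult forebrain contains neither cell type, although it expresses several of the genes used to recognise them.

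Totals ran from 39272127 to 52323985 reads per library, mitochondrial transcripts took 7.37% to 9.86% of the reads, and 24489 to 25284 genes were detected. The labels were checked with C1qtnf3, the gene from which the construct derives, and with Xist and Ddx3y, which are transcribed in females and males respectively. At least 1000 C1qtnf3 reads were taken to go with the collagen domain label and fewer with PBS. PBS female 2 was just above this cut with 1071 reads. The other libraries above it had 2612 to 4966, and those below it 8 to 28. C1qtnf3 went against the treatment label in 4 libraries and the sex genes went against the sex label in 4, which made 5 libraries with at least 1 contradiction: those labelled PBS female 2, PBS male 1, collagen domain female 1, collagen domain female 3 and collagen domain male 3. Libraries are named by their labels throughout, and the treatment and sex tests are given with and without these 5. The interaction of treatment and sex and the permutation test are given for all 12 libraries only.

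The sequences upstream of Gabra6 and Pcp2 are shown because these genes serve as the granule neuron and Purkinje cell reference against which the other genes are read further on. They are the 250 bases before a RefSeq transcription start on GRCm38.p6, on the minus strand, at chr11:42321073-42321322 for Gabra6 and at chr8:3625548-3625797 for Pcp2, which lies between Pet100 and Stxbp2. Capitals mark matches on either strand to 3 motifs: CAGATG, the E-box used by Atoh1 and Neurod1, factors of granule neurons; AGGTCA, the core site of Rora, a nuclear receptor that Purkinje cells need; and TTGGCA, the core site of nuclear factor I, which acts in maturing granule neurons.
Gabra6: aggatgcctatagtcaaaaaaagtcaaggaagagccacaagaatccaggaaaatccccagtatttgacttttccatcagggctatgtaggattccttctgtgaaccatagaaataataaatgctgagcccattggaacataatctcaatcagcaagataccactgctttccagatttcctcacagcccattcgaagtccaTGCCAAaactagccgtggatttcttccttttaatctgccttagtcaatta
Pcp2: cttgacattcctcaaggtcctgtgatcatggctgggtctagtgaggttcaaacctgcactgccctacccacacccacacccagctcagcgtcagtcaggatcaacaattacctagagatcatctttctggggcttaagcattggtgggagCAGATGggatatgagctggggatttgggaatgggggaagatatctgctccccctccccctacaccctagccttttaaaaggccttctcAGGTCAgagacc
In Gabra6 the capitals are a TTGGCA site read on the opposite strand, beginning 50 bases before the start, and in Pcp2 they are the E-box 100 bases and the Rora core site 12 bases before it, in the sense direction. CAGATG occurs in 14.4% of the 32851 windows of this length in the RefSeq table, AGGTCA in 4607 of them and TTGGCA in 12.3%, so that a match describes the letters and does not show a bound site. Of the 9 genes 6 had windows in that table, the exceptions being Crtam, En2 and Car8. The Cdh15 and Neurod1 windows held none of the 3 motifs, the Fat2 window held a Rora core site on the opposite strand 31 bases before the start, and both Cnpy1 windows held E-boxes.

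All 9 genes were high in the same 5 of the 12 libraries, and Gabra6, Fat2, Pcp2, Cnpy1 and Crtam were below 1 CPM (read counts scaled to the size of each library) in the other 7. The 5, called libraries with cerebellar RNA below, were PBS female 2, PBS female 3, PBS male 3, collagen domain female 2 and collagen domain male 2, so that 3 carried the PBS label and 2 the collagen domain label. In all 9 genes the largest gap between neighbouring libraries, on a scale of log2 CPM with 2 reads added, lay between these 5 and the other 7. Over all 19145 genes tested, 5.06% had these 5 libraries on top with no overlap, and since the 9 were chosen for this pattern nothing is read from their count. Transcripts that the adult forebrain largely lacks were thus present in 5 libraries labelled forebrain, and how the pieces were cut is not given in the sources used here.

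**Figure D1:**
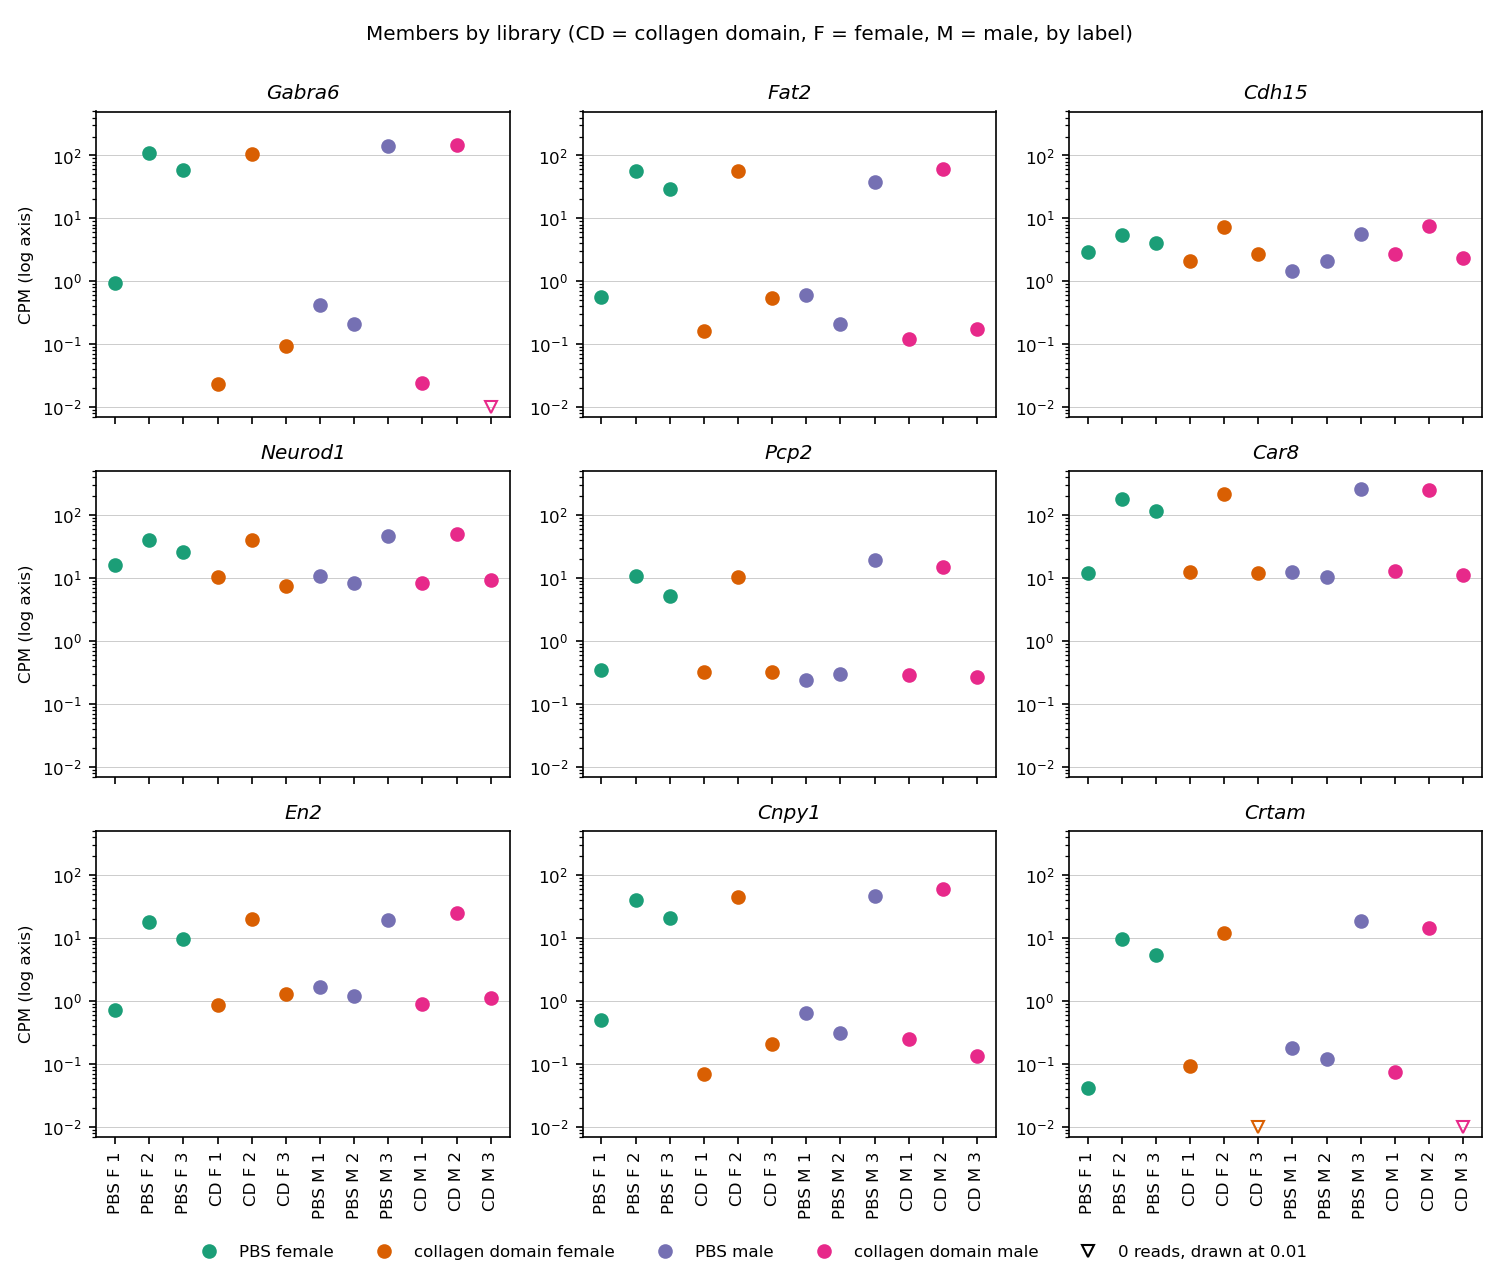
Level of each of the 9 genes in the 12 libraries, in CPM on a log axis, 1 point per library. The same 5 libraries lie above the largest gap in every panel, from Gabra6 with a 62.2-fold gap to Cdh15 with a 1.42-fold gap.

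Gabra6 encodes the alpha-6 subunit of the GABA-A receptor, which in the brain is largely limited to granule neurons of the cerebellum and cochlear nucleus. Its level was 58.4 CPM in PBS female 3, 106 in collagen domain female 2, 108 in PBS female 2, 144 in PBS male 3 and 148 in collagen domain male 2. In the other 7 libraries it was 0.939 in PBS female 1, 0.420 in PBS male 1, 0.212 in PBS male 2, 0.0931 in collagen domain female 3, 0.0246 in collagen domain male 1, 0.0232 in collagen domain female 1 and 0 in collagen domain male 3. These values rest on 3096 to 6374 reads in the 5 libraries and on 0 to 45 in the 7. The lowest of the 5 stood 62.2-fold above the highest of the 7, and the library without a Gabra6 read allows up to 0.0677 CPM on its unscaled total (3 reads, counting error only).

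Fat2, a giant protocadherin of granule neuron axons, had 56.2 CPM in PBS female 2, 28.9 in PBS female 3, 37.3 in PBS male 3, 56.5 in collagen domain female 2 and 61.5 in collagen domain male 2, from 1427 to 2699 reads. The other 7 held 0.618 in PBS male 1, 0.564 in PBS female 1, 0.535 in collagen domain female 3, 0.212 in PBS male 2, 0.177 in collagen domain male 3, 0.162 in collagen domain female 1 and 0.123 in collagen domain male 1, which left a gap of 46.7-fold. Within the 5, its order was not that of Gabra6: PBS male 3, which was among the highest for Gabra6, had less Fat2 than PBS female 2.

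Neurod1 and Cdh15 separated the libraries less. Neurod1, a basic helix-loop-helix factor that drives granule neuron differentiation and is also expressed by dentate gyrus and other forebrain neurons, reached 40.8, 26.4, 47.5, 40.8 and 51.0 CPM in PBS female 2, PBS female 3, PBS male 3, collagen domain female 2 and collagen domain male 2. The other 7 held 7.45 to 16.1 CPM, or 320 to 771 reads, so that Neurod1 was well detected in every library and its gap was 1.64-fold. Its highest value among the 7 was that of PBS female 1, which also had the most Gabra6 of the 7. Cdh15, or M-cadherin, an adhesion molecule of granule neurons and of muscle satellite cells, was a low-abundance gene with 5.54, 4.13, 5.73, 7.23 and 7.55 CPM in the same order of libraries and 1.46 to 2.90 in the 7, a gap of 1.42-fold. With size factors from relative log expression in place of the trimmed mean of M-values (TMM), its largest gap no longer fell between the 5 and the 7. The muscle genes Myod1, Myog and Myf5 reached at most 0.163, 0.0466 and 0.0466 CPM in any library, with Myog and Myf5 at 0 in 7 libraries each, and the summed level of the 6 muscle genes was 4.63 to 5.31 CPM in the 5 and 5.54 to 6.56 in the 7. Most of that sum was the actin Acta1, at 4.45 to 4.85 and 5.16 to 6.24 CPM, and the troponin Tnnt3 stood at 0.0523 to 0.25 and 0.0463 to 0.165.

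Pcp2 encodes a modulator of G protein signalling that in the brain is characteristic of Purkinje cells. It stood at 10.7 CPM in PBS female 2, 5.22 in PBS female 3, 19.7 in PBS male 3, 10.6 in collagen domain female 2 and 14.9 in collagen domain male 2. In the 7 it was nearly flat, at 0.243 to 0.355 CPM or 11 to 17 reads, and the gap was 14.7-fold. Pcp2 shares 941 exon bases with Pet100, a gene for a mitochondrial assembly factor on the opposite strand. The library kit keeps no strand, so reads from the shared bases cannot be told apart. Pet100 stood at 7.58 to 19.1 CPM, with its highest values in PBS female 1 (19.1) and PBS male 3 (18.9). Its part in the Pcp2 counts was not tested, and PBS female 1, with the most Pet100, had 0.355 CPM of Pcp2. Retinal bipolar cells also express Pcp2. Of retinal genes, Grm6 was at 0 in 7 libraries and at most 0.0377 CPM and Crx at most 0.116. The serotonin-synthesis enzyme Tph1, from the list of retina and pineal genes, overlapped at 0.21 to 0.392 CPM in the 5 and 0.27 to 0.745 in the 7.

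Car8, a catalytically inactive carbonic anhydrase that binds the inositol trisphosphate receptor Itpr1 in Purkinje cells, was the most abundant of the 9 genes in CPM. It stood at 183, 115, 262, 222 and 251 CPM in PBS female 2, PBS female 3, PBS male 3, collagen domain female 2 and collagen domain male 2. The 7 lay within a narrow band of 10.3 to 13.1 CPM, from 437 to 580 reads, and the gap was 8.73-fold. Like Neurod1, and unlike Gabra6, Car8 was thus detected in every library.

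En2 and Cnpy1 are neighbours on chromosome 5. En2 is a homeobox factor that patterns the midbrain-hindbrain region and persists in adult cerebellar neurons, and Cnpy1 belongs to the canopy family, studied for its part in fibroblast growth factor signalling at that boundary. En2 had 17.9, 9.83, 19.6, 20.2 and 25.1 CPM in PBS female 2, PBS female 3, PBS male 3, collagen domain female 2 and collagen domain male 2, against 0.710 to 1.66 in the 7, a gap of 5.93-fold. Cnpy1 had 40.5, 21.2, 47.1, 45.4 and 59.4 CPM in the same libraries, against 0.0695 to 0.640 in the 7, a gap of 33.1-fold. Both neighbours were lowest of the 5 in PBS female 3 and highest in collagen domain male 2. In the 7 libraries En2 had 34 to 75 reads and Cnpy1 3 to 29.

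Crtam, an immunoglobulin-family receptor best known from activated T and natural killer cells, had 9.84, 5.45, 18.6, 11.9 and 14.6 CPM in PBS female 2, PBS female 3, PBS male 3, collagen domain female 2 and collagen domain male 2. In the 7 it had 0 to 8 reads, at most 0.177 CPM, and no read in collagen domain female 3 and collagen domain male 3, which allows up to 0.0702 and 0.0677 CPM on their unscaled totals. Of genes that define T and natural killer cells, Cd3d was at 0 in 10 of the 12 libraries and Cd8a in 7. No library had more than 0.0624 CPM of Cd3e. The 10 genes of that list summed to 0.717 to 1.21 CPM in the 5 libraries and 0.377 to 0.815 in the 7, of which the T cell receptor constant gene Trac alone had 0.541 to 0.785 and 0.141 to 0.508. Trac was the only gene of the list that was tested. It had the 5 libraries on top with no overlap, as 5.06% of all genes tested did. Klrd1, Cd3g, Cd8b1 and Cd2 reached at most 0.131, 0.13, 0.104 and 0.0863 CPM. By label the sums were 0.377 to 1.07 CPM for PBS and 0.442 to 1.21 for the collagen domain.

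Compared per kilobase of exon, Car8 and Gabra6 led in the libraries with cerebellar RNA. In collagen domain male 2 Car8 stood at 65.2 CPM per kilobase, Gabra6 at 59.6, Neurod1 at 18.7, Cnpy1 at 10.1, Pcp2 at 8.13, En2 at 7.10, Fat2 at 4.23, Crtam at 2.85 and Cdh15 at 2.32. In PBS male 3 Pcp2, at 10.8 CPM per kilobase, passed Cnpy1 at 8.03, and Crtam, at 3.62, passed Fat2 at 2.57. In collagen domain female 1, among the 7, Neurod1 at 3.87 and Car8 at 3.25 CPM per kilobase led instead, and Gabra6 was last of those compared at 0.00931.

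The 5 libraries differed from each other. PBS female 3 was the lowest of the 5 in all 9 genes, and the highest of the 5 exceeded the lowest by 1.83-fold for Cdh15 and up to 3.76-fold for Pcp2. In bulk tissue fewer cerebellar cells and less RNA per cell cannot be told apart. A level relative to Gabra6 within the same library removes what a gene shares with Gabra6. It does not remove a level that a gene also has in libraries nearly free of Gabra6. In the 7 libraries the median was 9.26 CPM for Neurod1, 2.33 for Cdh15 and 12.1 for Car8, against 0.0931 for Gabra6. The ratios were not corrected for this, and its part in their ranges was not tested. Per 100 Gabra6 reads, Car8 varied 1.24-fold over the 5 libraries, Cnpy1 1.32-fold, Neurod1 1.37-fold, En2 1.4-fold, Crtam 1.42-fold, Pcp2 1.52-fold, Cdh15 1.78-fold and Fat2 2.07-fold.

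PBS male 3 was at an end of the range for 7 of the 8 ratios, and clear of the other 4 by its counting interval for some of them. It had 13.6 Pcp2 reads per 100 Gabra6 reads (exact 95% interval 12.6 to 14.7), and no other interval reached 12.6: PBS female 3 had 8.95 (7.88 to 10.1), PBS female 2 had 9.88 with an upper bound of 10.8, and the interval of collagen domain male 2 was 9.21 to 10.9. For Crtam it had 12.9 (11.9 to 13.9), against 9.11 to 11.2 in the other 4. This interval met that of collagen domain female 2, 10.3 to 12.3. For Fat2 it was lowest, at 25.8 (24.4 to 27.4) against 41.4 to 53.4, and it was also lowest for En2 at 13.6 (12.6 to 14.7), where the nearest interval began at 15.3. It was lowest too for Cdh15 at 3.97, Neurod1 at 32.9 and Cnpy1 at 32.6, but there its intervals met those of another library: 31.2 to 34.7 against 32.7 to 36.1 in collagen domain male 2 for Neurod1, 30.9 to 34.4 against 33.9 to 38.9 in PBS female 3 for Cnpy1, and 3.45 to 4.54 against 4.51 to 5.79 in PBS female 2 for Cdh15. For Car8 it was in mid-range, at 182 between 169 and 209. The intervals cover counting error only, and not the level that Neurod1, Cdh15 and Car8 also had in the 7 libraries. Pet100, whose exons overlap those of Pcp2, was also high in PBS male 3, at 18.9 CPM, and its part in the Pcp2 ratio was not tested.

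PBS male 3 also differed in gene length, a comparison chosen after these values were seen. Its 3115 tested genes with under 1.5 kilobases of exon had a median deviation of 0.21 on the log2 scale from their median over the libraries, and its 2742 genes above 8 kilobases one of -0.14. PBS female 1 had 0.17 and -0.10, and the other libraries lay between -0.13 and 0.09 for short genes. The 2 libraries also had the highest mitochondrial shares, 9.67% and 9.86%. Fat2 has 14.528 kilobases of exon, Crtam 5.131, En2 3.539, Gabra6 2.489 and Pcp2 1.828. Relative to Gabra6, PBS male 3 was lowest for Fat2 and En2 and highest for Crtam and Pcp2. The part of gene length in these ratios was not tested.

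**Figure D2:**
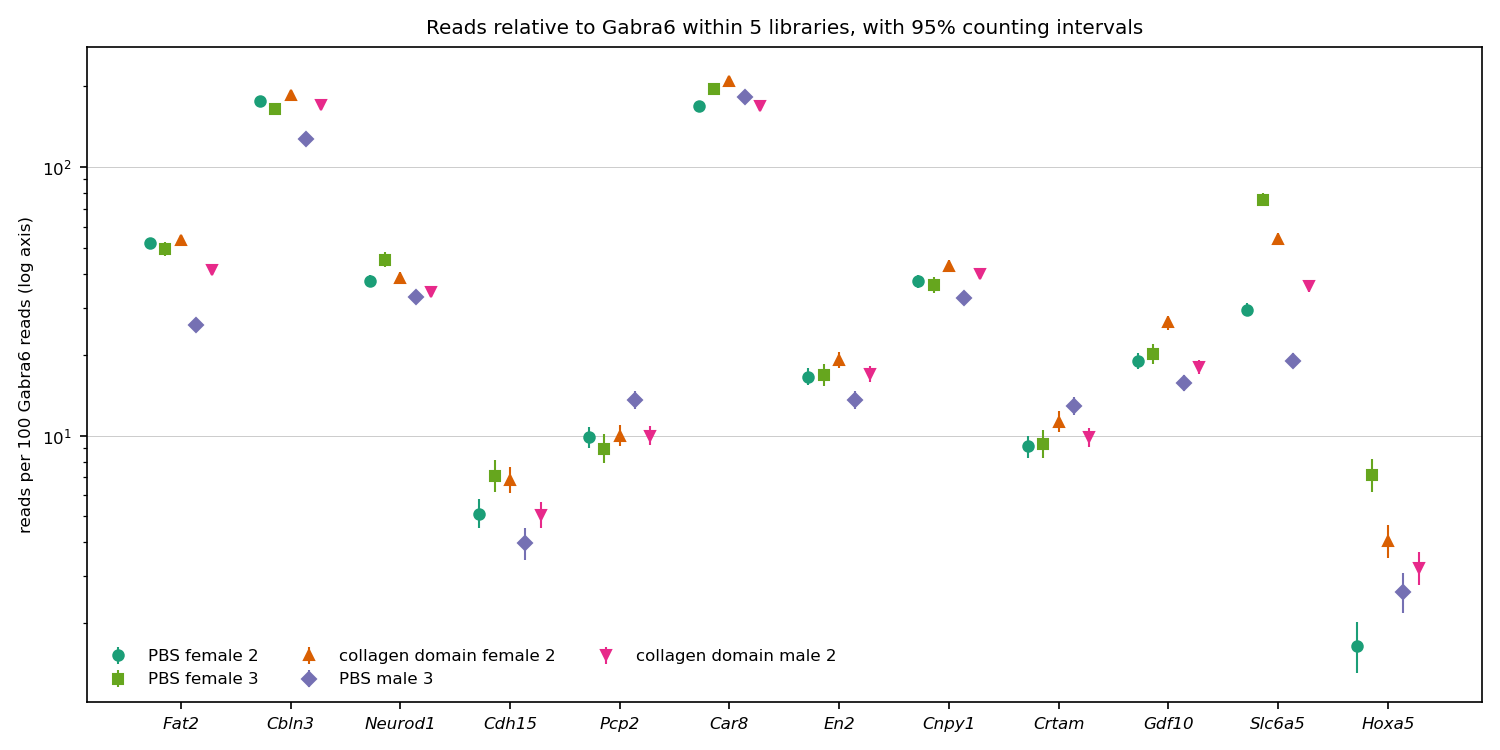
Reads of each gene per 100 reads of Gabra6 in the 5 libraries with cerebellar RNA, with exact 95% intervals for counting error. PBS male 3 is lowest for Fat2 (25.8) and highest for Pcp2 (13.6) and Crtam (12.9).

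Hoxa5 and Slc6a5, read beside the 9 genes, did not keep step with them. Hoxa5, a homeobox gene of the caudal hindbrain and spinal cord, stood at 1.64 reads per 100 Gabra6 reads in PBS female 2 (interval 1.31 to 2.03) and at 7.11 in PBS female 3 (6.17 to 8.15), a 4.34-fold range. Slc6a5, the transporter of glycinergic neurons of brainstem, spinal cord and cerebellum, ranged 3.98-fold, from 19.0 in PBS male 3 to 75.6 in PBS female 3. Slc6a5 is also on the list of cerebellar inhibitory interneuron genes read below, so its level is not that of tissue behind the cerebellum alone. PBS female 3 thus held the least cerebellar RNA of the 5 and the most Hoxa5 and Slc6a5 relative to it.

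PBS male 1 had Hoxa5 and Slc6a5 at levels nearer to the 5 libraries than its cerebellar genes were. It was among the 7 libraries, with 0.420 CPM of Gabra6, yet had 79 reads of Hoxa5, or 1.74 CPM, close to the 1.77 of PBS female 2, while the other 6 had at most 0.0626. Its Slc6a5 level was 13.7 CPM, against at most 0.440 in the other 6 and 27.4 to 57.1 in the 5. Its En2 level, 1.66 CPM, was the highest of the 7. It was also the highest of the 7 for Fat2 at 0.618 CPM, Cnpy1 at 0.640 and Crtam at 0.177, all far below the 5. PBS female 1 had the most Gabra6 of the 7 (45 reads) with 3 reads of Hoxa5, but the lowest En2 of the 7 at 0.710 CPM and less Fat2, Cnpy1 and Crtam than PBS male 1. Cbln3 stood at 1.48 CPM in PBS female 1 and 1.46 in PBS male 1.

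**Figure D3:**
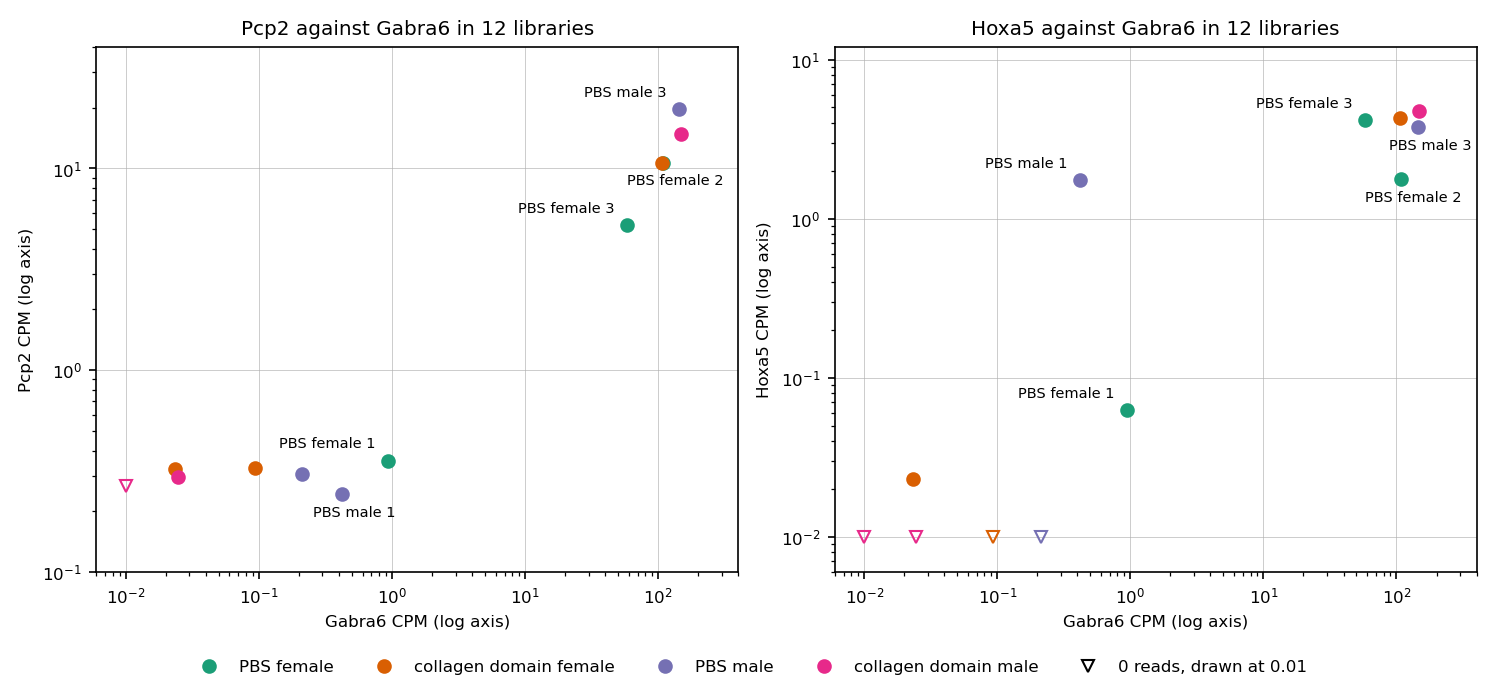
Pcp2 (left) and Hoxa5 (right) against Gabra6, in CPM on log axes with 1 point per library. Pcp2 separates the same 5 libraries as Gabra6, while PBS male 1 has Hoxa5 at 1.74 CPM with Gabra6 at 0.420.

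Other genes of the cerebellum were read from lists by cell type and set against all 19145 genes tested. Over those genes 5.06% had the 5 libraries on top with no overlap, as above, 0.313% had them above by a step of at least 1 log2 unit, and 2.79% had them below with no overlap. The 9 genes, chosen for this pattern, counted 9, 7 and 0. The lists too were chosen with earlier results of these data known, so their counts are given as a description. Of 15 other granule neuron genes 11 had the 5 libraries on top and 3 made the step. Their 3 most abundant members are also forebrain genes: the vesicular glutamate transporter Slc17a7 overlapped at 618 to 829 CPM in the 5 and 710 to 850 in the 7, the release factor Cadps2 stood at 105 to 118 and 86.5 to 94.1, and the calcium buffer Calb2 at 102 to 126 and 76.2 to 102. Cbln3, a secreted synapse organiser of granule neurons, stood at 96.2 to 252 CPM in the 5 and 0.162 to 1.48 in the 7.

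Of 17 other Purkinje cell genes 14 had the 5 libraries on top and 6 made the step. Itpr1, the calcium release channel to which Car8 binds, stood at 727 to 915 CPM in the 5 and 497 to 711 in the 7, the calcium buffer Calb1 at 210 to 330 and 139 to 182, and the Notch ligand Dner at 193 to 226 and 144 to 169. Of 5 genes of Bergmann glia, the astrocytes that ensheathe Purkinje dendrites, 3 had the 5 libraries on top and 1 had them lowest, and none made the step. The glutamate transporter Slc1a3 stood at 534 to 650 CPM in the 5 and 461 to 524 in the 7, the septin Septin4 at 215 to 256 and 172 to 192, and the lipid-binding Fabp7 at 27.9 to 40.2 and 44.4 to 83.5.

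Of 9 genes of cerebellar inhibitory interneurons 4 had the 5 libraries on top and 2 made the step. The receptor tyrosine kinase Kit stood at 44.6 to 63.7 CPM in the 5 and 27.9 to 36.5 in the 7, while the kinase Prkcd at 56.0 to 68.2 and 43.1 to 102 and Nxph1 at 44.4 to 51.3 and 47.9 to 53.1 overlapped. Of 3 genes of unipolar brush cells, excitatory interneurons of the granular layer, only the phospholipase Plcb4 did not overlap, at 119 to 138 and 75.7 to 102 CPM. Eomes, at 8.29 to 11.5 and 10.9 to 16.3, and Lmx1a, at 0.445 to 1.09 and 0.25 to 0.602, overlapped.

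Regional lists placed the rest of the tissue. Of 7 tested genes of the midbrain-hindbrain boundary 3 had the 5 libraries on top and 1 made the step, Pax2 standing at 1.60 to 2.74 CPM in the 5 and 0.0222 to 0.442 in the 7 while Otx2, at 4.47 to 6.39 and 2.55 to 4.89, and Gbx2, at 0.863 to 1.77 and 0.71 to 2.14, overlapped. Of 12 Hox genes 9 were tested, Hoxb2, Hoxd3 and Hoxd4 being too low for the expression filter. All 9 had the 5 libraries on top, but none made a step there. All 9 made it instead between 6 libraries, PBS male 1 included, and the other 6, which 0.172% of genes did. This step was also made by 3 of the 7 boundary genes and by Slc6a5 of the interneuron list. The split was set with the levels of PBS male 1 in these data known, so nothing is read from these counts. The tested Hox genes were at or near 0 in the other 6 libraries. They passed the filter only through the libraries where they are high, so nothing is read from all 9 being on top either. Hoxb5 stood at 1.52 to 3.47 CPM in the 5 and 0 to 0.883 in the 7, and Hoxc4 at 0.749 to 1.94 and 0 to 0.397. The summed Hox level was 6.79 to 16.4 CPM in the 5, 4.75 in PBS male 1 and 0.0835 in PBS female 1.

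Forebrain genes overlapped for the most part, and the rest were lower in the 5 libraries. Of 12, none had the 5 libraries on top. With no overlap 4 had them lowest (5 with size factors from relative log expression), beside 2.79% of all genes tested. The sums did not overlap, at 340 to 409 CPM in the 5 and 413 to 487 in the 7. The cortical factors Bcl11b, at 63.9 to 82.7 and 77.7 to 95.9, and Tbr1, at 51.4 to 70.5 and 68.6 to 81.1, overlapped, and Neurod6 stood at 57.1 to 68.8 in the 5 and 69.5 to 90.2 in the 7. Neurod2, named after its values were seen, had the higher range in the 5, at 44.2 to 54.4 against 38.4 to 50.2 CPM. Of 5 dentate gyrus genes, read because dentate granule neurons also express Neurod1, none had the 5 libraries on top: Prox1 stood at 26.2 to 31.1 and 23.3 to 28.2 CPM, the adhesion ligand Npnt at 16.2 to 20.4 and 16.0 to 20.1, and C1ql2 at 7.48 to 8.64 and 4.54 to 7.88. Forebrain transcripts were thus present in all 12 libraries.

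**Figure D4:**
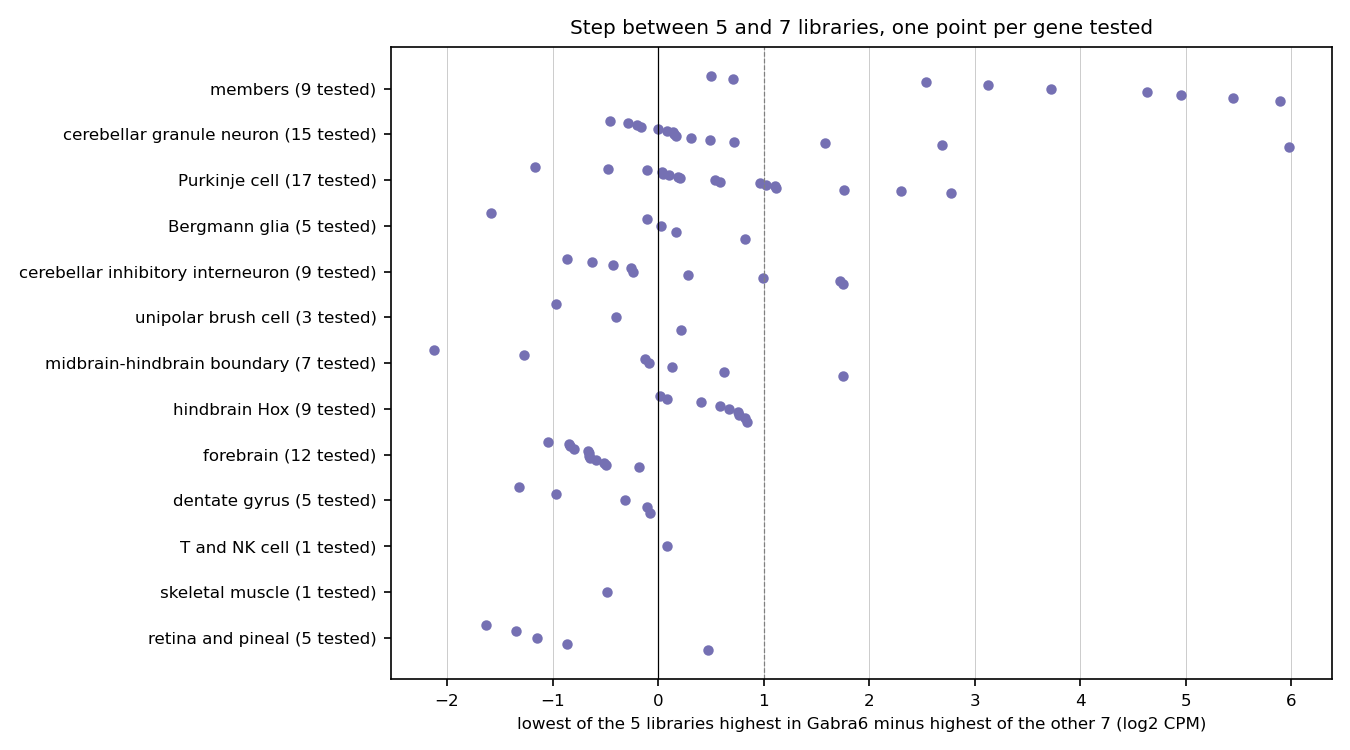
Difference in log2 CPM between the lowest of the 5 libraries with cerebellar RNA and the highest of the other 7, 1 point per gene, by list. Points above 0 do not overlap; the 9 chosen genes all lie above 0, while none of the 12 forebrain genes does.

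Likeness was measured as the root mean square difference between profiles of log2 CPM over the 12 libraries, each centred on its own mean, among 15474 genes with a mean of at least 1 CPM. The libraries fall into separate sets, so this measure mostly reads the size of the step. With the 9 genes left out, nearest to Gabra6 was Cbln3 at 0.89 log2 units, followed by the kinase Nrk at 2.00, Slc6a5 at 2.15, the D-amino acid oxidase Dao at 2.32 and Hoxa5 at 2.38. Of the 9 genes themselves Cnpy1 at 1.31, Fat2 at 1.37 and Crtam at 1.67 were nearer than Nrk, and Cdh15 at 4.12 was farthest.

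Pcp2 had closer neighbours, again with the 9 genes left out. Ppp1r17, a phosphatase inhibitor of Purkinje cells, lay at 0.41 log2 units, with 16.8 to 50.8 CPM in the 5 libraries and 1.08 to 2.42 in the 7, and had 258 to 345 reads per 100 of Pcp2. The exchange factor Arhgef33 lay at 0.61, Mybpc3, a myosin-binding protein better known from heart, at 0.67, Nrk at 0.75 and the interleukin receptor chain Il20rb at 0.77. Of the other 8 genes Car8 at 0.53 and En2 at 0.66 were nearest to Pcp2, Cnpy1 stood at 1.24 and Fat2 at 1.25, and Cdh15 at 1.84 was farthest.

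The design compares collagen domain with PBS in both sexes, and none of the 9 genes passed that test. Gabra6 in the 6 libraries labelled PBS had a lowest level of 0.212, a median of 29.7 and a highest of 144 CPM (mean 52.1 ± 62.7, SD), and in the 6 labelled collagen domain 0, 0.0588 and 148 (42.4 ± 67.0). Pcp2 had 0.243, 2.79 and 19.7 CPM with PBS (6.08 ± 7.83) and 0.266, 0.325 and 14.9 with the collagen domain (4.44 ± 6.56). The groups overlapped fully in both genes, since each holds libraries with and without cerebellar RNA.

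By edgeR's quasi-likelihood test over 19145 genes, with sex as a covariate, no gene had an adjusted p below 0.05 (0%), 354 had an unadjusted p below it, and DESeq2 and limma-voom also made 0 calls. The log2 fold change, collagen domain over PBS, was -0.31 (SE 1.95) for Gabra6, 0.06 (1.74) for Fat2, 0.19 (0.431) for Cdh15 and -0.23 (0.626) for Neurod1. It was -0.45 (SE 1.36) for Pcp2, -0.19 (1.22) for Car8, -0.03 (1.16) for En2, -0.06 (1.72) for Cnpy1 and -0.35 (1.60) for Crtam, and the adjusted p was 1 for all 9. The median over the 9 was -0.19, with 2 above 0, beside 0.000222 over all genes tested. It was -0.03 over the granule list, 0.02 over the Purkinje list, 0.04 over Bergmann glia, -0.23 over the Hox genes and 0.01 over the forebrain genes, and no gene of any list was called. Without the 5 libraries that contradict a label these medians were 0.72 over the 9 genes, 0.28, 0.35 and 0.16 over the granule, Purkinje and Bergmann lists, 0.86 over the Hox genes, of which 11 were then tested, and -0.12 over the forebrain genes, so that the sign turned for the 9, the granule, the Hox and the forebrain genes.

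Exact permutation of the treatment labels within the sexes gave two-sided p-values from 0.295 for Gabra6 to 0.935 for Car8, or 0.934 to 0.935 after Benjamini-Hochberg adjustment over the 9. Without the 5 libraries that contradict a label, 4 PBS and 3 collagen domain libraries remained, of which 2 and 2 hold cerebellar RNA. The fold changes were then 0.77 (SE 2.17) for Gabra6, 1.21 (1.90) for Fat2, 0.64 (0.448) for Cdh15, 0.42 (0.722) for Neurod1, 0.56 (1.57) for Pcp2, 0.72 (1.44) for Car8, 0.98 (1.35) for En2, 1.04 (1.89) for Cnpy1 and 0.67 (1.87) for Crtam. The sign turned in 7 of the 9, the smallest adjusted p of edgeR's test among them was 0.688, and 2 genes of the 19661 then tested were called (0.0102%), neither of them among the 9. The 7 negative values also turned positive when PBS male 3 alone was left out, to between 0.23 for Neurod1 and 1.34 for Gabra6, and those of Fat2 and Cdh15 turned negative without collagen domain male 2, at -1.99 and -0.15, and without collagen domain female 2, at -1.27 and -0.08.

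**Figure D5:**
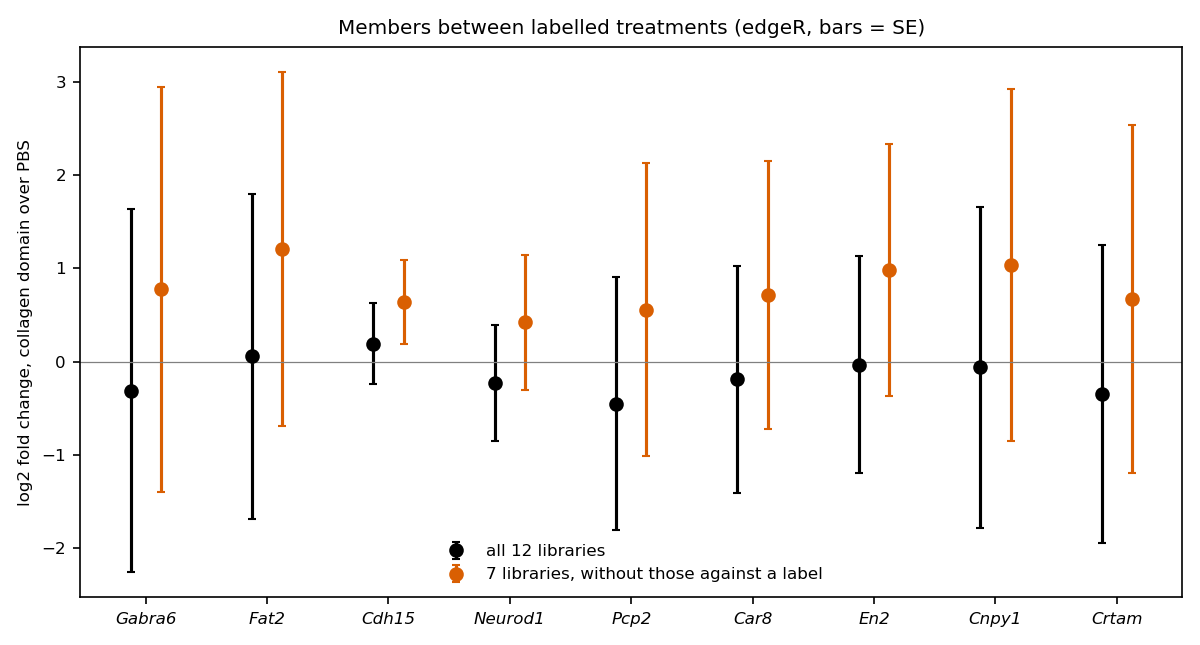
Fold change of each gene between libraries labelled collagen domain and PBS, on the log2 scale with its standard error, from all 12 libraries and without the 5 that contradict a label. The sign differs between the fits for 7 of the 9 genes. Every value with its error spans 0, except that of Cdh15 without the 5 libraries, at 0.64 (SE 0.448).

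Between libraries labelled male and female, edgeR's quasi-likelihood test called 0 of 19145 genes (0%), with 377 at an unadjusted p below 0.05, 8 calls by DESeq2 and 0 by limma-voom, and the adjusted p was 1 for all 9 genes. Without the 5 libraries that contradict a label it called 8 of 19661 (0.0407%), with an adjusted p of 1 for each of the 9. Cerebellar RNA was present in 3 libraries labelled female and 2 labelled male. The interaction of treatment and sex was called in 0 of 19145 genes (0%), with 263 at an unadjusted p below 0.05, and the smallest p of edgeR's test among the 9 genes was 0.585, with an adjusted p of 1.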

How the data were processed

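Poly(A) RNA of 12 mouse forebrain samples was sequenced in paired reads from libraries that keep no strand, per the labels' protocols. The authors deposited whole read counts per Ensembl gene, unnormalised. The submitters' processing notes name STAR, DESeq2 and GRCm39 without a role, and the counting tool, strand setting and annotation release are not given in the sources used here. Gene names and exon lengths came from GENCODE M21 (42462 of 43629 identifiers named), which is of another build, so no gene coordinates are given from it. Promoters came from RefSeq (GRCm38.p6).

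Samples were grouped by the labels for treatment and sex. Genes passing edgeR's expression filter (19145, all 9 members among them) were fitted with edgeR 4.0.16 in R 4.3.3 (TMM scaling, quasi-likelihood F-test, treatment and sex as terms, Benjamini-Hochberg adjustment, threshold 0.05, common biological coefficient of variation 0.178). Alternatives used DESeq2 1.42.0, limma 3.58.1 (voom), other scaling and filters, a replicate block and left-out libraries. CPM used TMM-scaled totals, and log2 CPM had 2 reads added. Scripts were tested on simulated data. At 39272127 reads or more per library, 3 reads correspond to at most 0.0764 CPM.

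The 9 genes, the 12 lists of other genes (110 symbols, all matched) and the motifs were chosen with earlier results of these data known. The text names the 9 genes, the up to 3 most abundant genes of each list, any list gene with an adjusted p below 0.05 (there was none), and the 5 genes each most like Gabra6 and Pcp2. Other muscle, retina and T cell genes, and Pet100, were named after their values were seen. Some genes of the retina and pineal list are not reported here.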

Additional observations from a re-analysis of the deposited data

How the results depend on the processing

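The largest gap separated the same 5 libraries for 9 genes under other prior counts and total-count scaling, and for 8 with relative log expression factors, Cdh15 being the exception. Leaving out each library in turn gave 8 to 9. The number of treatment calls was 0 under all alternatives except without the libraries against a label, where it was 2, and it was 0 to 0 with each library left out. For sex it was 8 with DESeq2, 8 without the libraries against a label, and 0 to 5 with each library left out, the 5 without PBS male 3. Interaction calls were 0 to 0.

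Of the treatment fold changes of the 9 genes under the alternatives, 141 kept their sign and 43 turned it, with adjusted p from 0.688 to 1. Without the libraries against a label the log2 values that turned were 0.77 for Gabra6, 0.42 for Neurod1, 0.56 for Pcp2, 0.72 for Car8, 0.98 for En2, 1.04 for Cnpy1 and 0.67 for Crtam. Fat2 turned to -1.78 with limma-voom, -0.05 with no sex term, and -1.44 as the difference of means used in the permutation. Values that kept their sign also moved: Gabra6 was -3.92 with limma-voom, Cnpy1 -1.99 and Crtam -2.09. With each library left out in turn the values ran from -2.47 to 1.34 for Gabra6, -1.99 to 1.20 for Fat2, -0.15 to 0.49 for Cdh15, -0.85 to 0.23 for Neurod1, -1.79 to 0.96 for Pcp2, -1.38 to 0.97 for Car8, -1.27 to 0.79 for En2, -1.99 to 1.30 for Cnpy1 and -1.85 to 1.16 for Crtam. The filter of 1 CPM in at least 6 libraries kept only Cdh15, Neurod1, Car8 and En2, and gave no value for the others. The cause of the sign changes was not tested.

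Replicate numbers did not pair the samples: over 18 same-numbered pairs, correlations of deviations from the group means ran from -0.384 to 0.572, with 7 above 0.1. With the replicate block, treatment and sex calls stayed at 0, Fat2 turned to -1.93, Gabra6 was -2.85, Cnpy1 -1.98, Crtam -1.58 and Pcp2 -1.17. Of the depth, the 0 to 45 Gabra6 reads in 7 libraries give no usable ratios, so composition was compared in the other 5 alone.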
